A study of Mus musculus with 12 samples.

Results

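Mir21 and Mir22 are 2 of the 1577 miRNA features, and of 32101 annotated features in all, that were counted in small RNA libraries of mouse embryonic stem cells (ESCs). Both are taken here as miRNAs of differentiated cells, and both were picked with their levels in cells lacking Dicer already known, so what they kept without Dicer is described below and not tested. The libraries cover 3 genotypes, all labelled as E14 ESCs, an established mouse line. The study's methods give the strain of its Dnmt1 loxP/loxP ESCs as C57BL/6, so where a knockout library came from that line, genotype and line cannot be told apart. The wild-type (WT) group has 6 libraries, numbered 1 to 3 with A before B under each number (1A to 3B), of which 2A and 2B carry no genotype in their titles and are placed by their genotype label. The Dnmt1 KO group (Dnmt1 -/-) has 2 libraries, A and B, and lacks the maintenance DNA methyltransferase. The Dicer/Dnmt1 KO group (Dicer/Dnmt1 -/-) has 4 libraries, named in the same way (1A to 2B), and lacks both Dnmt1 and Dicer. The study made its deletions through Cre induced by tamoxifen, or by genome editing with clones picked as single cells, and the labels say neither which was used for a library nor how long after deletion it was taken. The study grew its ESCs in serum with LIF, with or without feeder cells, and the labels do not say which.

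miRNAs are cut from hairpin transcripts, first in the nucleus by Drosha with Dgcr8 and then in the cytoplasm by Dicer. The mature strand is loaded into an Argonaute protein and pairs with mRNAs through its seed, bases 2 to 8 counted from the 5′ end. miR-21 is abundant in fibroblasts, endothelium and many tumours, while miR-22 is broadly expressed in differentiated tissues such as heart and muscle. ESCs rely mainly on the miR-290 to 295, miR-302 and miR-17 to 92 families.

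The mature strands of both members are shown because reads were assigned to a member by mapping, which only a sequence found nowhere else allows without ambiguity. They are RefSeq sequences (GRCm38.p6 tables), 22 bases each, written 5′ to 3′ with the seed in capitals.
mmu-miR-21a-5p: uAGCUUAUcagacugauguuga
mmu-miR-21a-3p: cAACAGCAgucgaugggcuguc
mmu-miR-22-3p: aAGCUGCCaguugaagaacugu
mmu-miR-22-5p: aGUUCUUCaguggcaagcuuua
The 4 strands have 4 different seeds. Among the mature mouse miRNAs of the table, 1 other, mmu-miR-21c, has the seed of miR-21a-5p, and none has the seed of the other 3 strands. Each strand occurs exactly once in the NCBIM37 genome, the build to which the reads were mapped, and that copy lies inside its own feature. The table counts a hairpin as 1 feature, so the share of each strand in the reads is not given.

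Both genes lie on chromosome 11. Mir21 (ENSMUSG00000065455.1) is at chr11:86397569-86397660 on the minus strand of NCBIM37, within the last exon and the 3′ UTR of Vmp1, which encodes an autophagy membrane protein. Mir22 (ENSMUSG00000065529.1) is at chr11:75277218-75277312 on the plus strand, within an exon of the noncoding transcript 2210403K04Rik and of a noncoding transcript of Tlcd2. The rows of these host genes repeat the reads of the miRNAs. Over the 12 libraries, 99.95% of the 6663 reads counted for 2210403K04Rik and 100% of the 6660 reads counted for Tlcd2 were Mir22 reads. Mir21 gave 99.8% of the 9549 reads of Vmp1, which left 20 reads elsewhere in that gene, at most 6 of them in 1 library. The host genes are therefore no second measurement of either member.

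The deposited values are log2 RPM (reads scaled to a common library total) for reads of 20 to 24 nt, and whole reads were recovered from them. A library held between 8710 and 245184 reads, so 1 read was worth between 4.08 and 114.81 RPM, and the 2 shallowest libraries were Dicer/Dnmt1 KO 1B and WT 2A. miRNA reads made up 29.0% to 69.5% of a WT library, 62.7% and 65.4% of the Dnmt1 KO libraries and 6.68% to 12.01% of the Dicer/Dnmt1 KO libraries. WT 2A stood apart within WT, with the largest miRNA share of that group. A list of 21 ESC miRNAs summed to 171700 ± 44040 RPM (SD, n = 6) in WT, with reads for every one of the 21. Mir93, an ESC miRNA that the study used to check loss of Dicer activity, had 14 to 314 reads in the WT libraries and 131 and 209 reads in Dnmt1 KO. It had 2, 1, 4 and 3 reads in the Dicer/Dnmt1 KO libraries 1A to 2B, or 1.66% to 9.60% of the WT mean RPM.

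Mir21 and Mir22 were both most abundant in the Dnmt1 KO libraries, and both lay in one range in WT and in Dicer/Dnmt1 KO. Mir21 had 5718, 5661, 3221, 7532, 7137 and 7386 RPM in WT 1A to 3B, taken in order. In Dnmt1 KO A and B it had 16330 and 18610 RPM. In Dicer/Dnmt1 KO 1A to 2B it had 5921, 7922, 11100 and 3942 RPM, from 145, 69, 704 and 594 reads. Both Dnmt1 KO libraries were above every other library, and the Dicer/Dnmt1 KO values lay on both sides of the WT values, with 1B and 2A above all 6 and 2B below 5 of them.

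Mir22 had 2541, 2710, 2540, 5720, 2869 and 3947 RPM in the same 6 WT libraries. In Dnmt1 KO A and B it had 15560 and 20350 RPM. In Dicer/Dnmt1 KO 1A to 2B it had 3103, 3904, 6827 and 1593 RPM, from 76, 34, 433 and 240 reads. Again both Dnmt1 KO libraries were highest, while 2A of Dicer/Dnmt1 KO was above and 2B below all 6 WT libraries. The order of the 4 Dicer/Dnmt1 KO libraries in RPM was 2A, 1B, 1A, 2B for both members. After TMM scaling (described below) this order held for Mir22 but not for Mir21. Mir21 was then lowest in 1A, at 3476 RPM, beside 3902 RPM in 2B. The counting error was largest in Dicer/Dnmt1 KO 1B, where the 95% Wilson interval of Mir22 ran from 2795 to 5450 RPM, and such intervals cover counting error only.

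**Figure D1:**
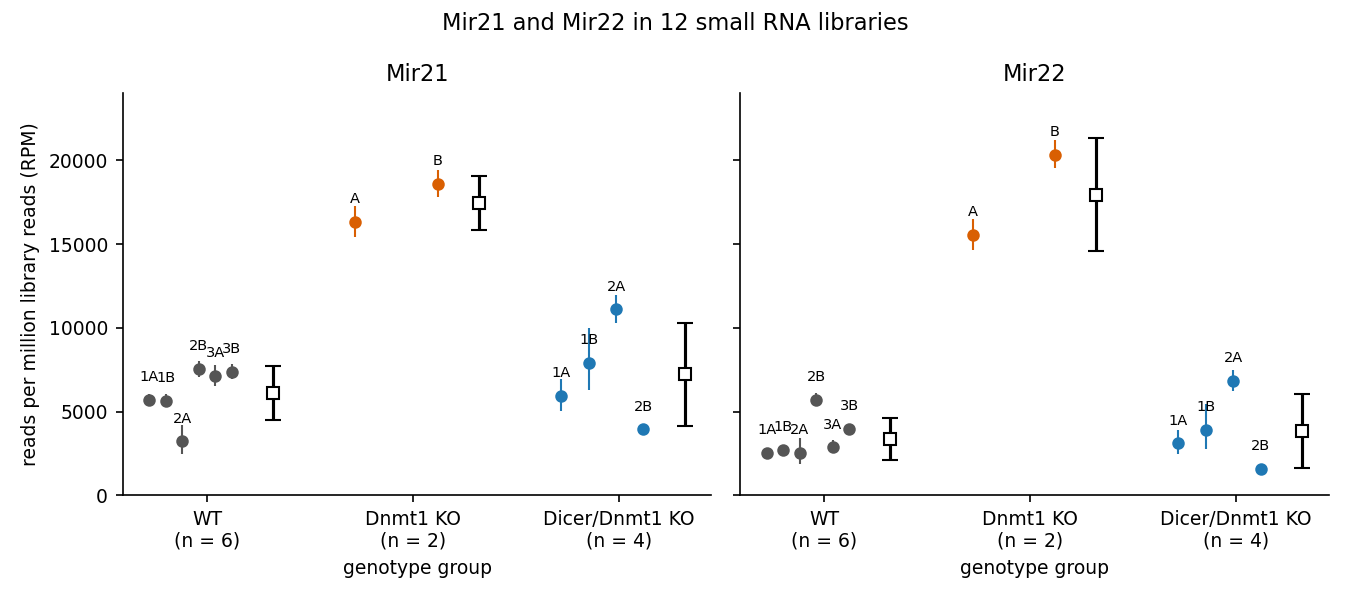
RPM (linear axis from 0) of Mir21 (left) and Mir22 (right) in each of the 12 libraries, grouped by genotype. Filled points are libraries with their 95% Wilson counting interval, open squares with bars are the group mean ± SD; the 2 Dnmt1 KO libraries lie above all others in both panels, and the 4 Dicer/Dnmt1 KO libraries overlap WT.

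By group, Mir21 averaged 6109 ± 1637 RPM (SD, n = 6) in WT, 17470 ± 1617 (n = 2) in Dnmt1 KO and 7221 ± 3054 (n = 4) in Dicer/Dnmt1 KO. Mir22 averaged 3388 ± 1258, 17960 ± 3389 and 3856 ± 2200 RPM in the same groups. The WT and Dicer/Dnmt1 KO means, the lower pair for both members, differed by less than the SD within either group in RPM. Without the libraries titled E14 2, the WT means were 6475 ± 913 RPM for Mir21 and 3016 ± 634 for Mir22 (n = 4). Whether an RPM reflects more of 1 miRNA per cell or fewer other small RNAs cannot be told apart in these bulk libraries, nor can cells of another type among the ESCs.

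The contrast of Dnmt1 KO with WT asks whether loss of Dnmt1, with Dicer present, altered the 2 miRNAs. The Dicer/Dnmt1 KO libraries are in neither arm but enter the scaling and the spread of the shared fit. The WT libraries are those of the level kept without Dicer, so this test is not independent of how the members were picked. Both were higher in Dnmt1 KO. The fold on the log2(RPM + 10) scale after TMM scaling, a scaling that assumes most features are unaltered, was 3.31 for Mir21 (log2 difference 1.73 ± 0.41 SE, limma adjusted p = 0.0216) and 6.15 for Mir22 (2.62 ± 0.55, limma adjusted p = 0.00762). Among all features tested 6.59% were called higher, and among the 133 tested miRNAs 21.1% were called higher and 0.752% lower. The miRNAs as a whole had a median log2 difference of 1.40 in this contrast, and Mir22 was 24th and Mir21 54th from the top of the 133. Mir21 was thus near the middle of the miRNAs in this contrast.

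Over the other settings tried, the adjusted p ranged from 0.00642 to 0.513 for Mir21 and from 0.000794 to 0.30 for Mir22, with the log2 difference between 1.57 and 2.10 and between 2.44 and 3.00. The labels do not say whether A and B of 1 number are separate cultures, so the p-values measure the spread between libraries, which may be technical. With library reads alone the adjusted p of Mir21 was 0.166, and with an estimated correlation of A and B it was adjusted p = 0.0769. Without the filter on low values it was 0.513 for Mir21 and 0.30 for Mir22. With A and B summed to 1 sample, which leaves 1 Dnmt1 KO sample, the adjusted p was 0.334 for Mir21 and 0.234 for Mir22. Without Dnmt1 KO A it was 0.223 and 0.0946, without Dnmt1 KO B 0.302 and 0.166, and without WT 1B that of Mir21 was 0.0787.

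Without Dicer, Mir21 and Mir22 kept more of their WT level than most tested miRNAs, but not the most. The mean of Dicer/Dnmt1 KO, as a percent of the WT mean RPM, is called the level kept. Mir21 kept 118% and Mir22 114%, but 64.6% and 57.3% after TMM scaling. The TMM factors were above 1 in all 4 Dicer/Dnmt1 KO libraries and lowest in WT 2A and 2B. Without Dicer/Dnmt1 KO 2A the level kept was 97.0% and 84.6%, and from reads summed over each group it was 94.97% and 91.66%. The fitted log2 difference to WT was -0.66 ± 0.33 (SE) for Mir21 and -0.78 ± 0.43 for Mir22 after TMM scaling, and turned to 0.19 and 0.070 with library reads alone. The median over the 133 tested miRNAs was -2.75, with 60.9% of them called lower and 12% called higher at a limma adjusted p under 0.05. By this difference Mir21 was 39th and Mir22 40th from the top of the 133. These values were known when the 2 were picked and are given without a test.

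Against Dnmt1 KO, which differs from Dicer/Dnmt1 KO by Dicer alone in the labels, the level kept was 41.3% for Mir21 and 21.5% for Mir22. Both Dicer/Dnmt1 KO ranges lay wholly below the Dnmt1 KO values. The fitted log2 differences were -2.39 ± 0.44 for Mir21 and -3.40 ± 0.58 for Mir22, beside a median of -4.17 for the tested miRNAs. Mir21 was 29th and Mir22 45th from the top of these 133 miRNAs. On the reference of Dnmt1 KO, then, both members were below their levels in every setting tried, with log2 differences from -2.87 to -1.37 and from -3.88 to -2.39.

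The set of like level held 10 miRNAs with a WT mean between 0.5 and 2 times that of Mir21, and all 10 kept less than Mir21. Their median level kept was 5.97%, and the range ran from 1.28% (Mir92b) to 114% (Mir22). The nearest in WT level were Mir25, of the miR-106b to 25 cluster, which kept 4.37%, Mir183 with 28.1%, Mir148a with 7.31%, Mir293 of the ESC cluster with 2.54% and Mir92b. Besides Mir22, those that kept most were AL844840.2, an annotated miRNA with a clone name, at 81.4%, and Mir183, and those that kept least were Mir92b, Mir293 and Mir25. The WT level of Mir183 was uneven, 7548 ± 12580 RPM (SD, n = 6), from 673 to 32590 RPM, and it kept 8.35% after TMM scaling. Uneven in WT, too, were CT010508.1, a clone-named miRNA of the set (10440 ± 15680 RPM), and Mir151 (3664 ± 3980 RPM). For miRNAs this uneven, the match in WT level is loose. After TMM scaling, too, 0 of 10 exceeded the 64.6% of Mir21. With Dnmt1 KO as the reference, 1 of 10 did, AL844840.2 at 75.9% against 41.3%.

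Mir22 had 11 miRNAs within 0.5 to 2 times its WT mean, of which 3 kept more and 8 kept less. Those that kept more were AC113316.1 at 312%, AC122337.1 at 276%, both miRNA annotations with clone names, and Mir21. The level of AC113316.1 in Dicer/Dnmt1 KO was uneven, 8844 ± 10680 RPM (SD, n = 4). In WT it had 2839 ± 2655 RPM (SD, n = 6), and Mir151 had 3664 ± 3980 RPM, so their match in level is loose. Nearest in WT level were Mir291a with 4.63%, Mir151 with 11.8%, AC113316.1, Mir92b and Mir130a with 5.56%. The lowest were Mir92b, Mir294 with 1.95% and Mir291a, and the median was 11.8%. In Dnmt1 KO the order was another: Mir22 was at 530% of its WT mean, above all 11, while 4 of the 10 miRNAs of Mir21's level exceeded its 286%.

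**Figure D2:**
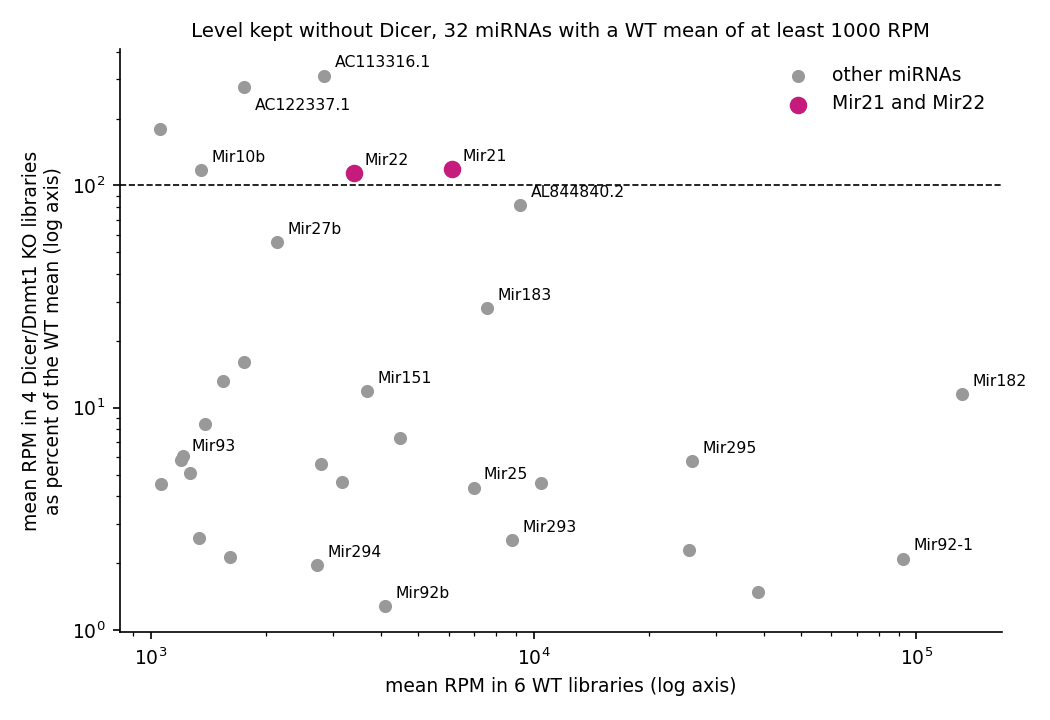
Level kept without Dicer (mean RPM of 4 Dicer/Dnmt1 KO libraries as a percent of the WT mean, log axis) against the mean RPM of 6 WT libraries (log axis) for the 32 miRNAs with a WT mean of at least 1000 RPM. Each point is 1 miRNA; Mir21 at 118% and Mir22 at 114% lie just above the dashed line at 100% (64.6% and 57.3% after TMM scaling), while the median of the 32 is 5.94%.

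Of the 32 miRNAs with a WT mean of at least 1000 RPM, 6 kept the WT level or more in RPM: AC113316.1, AC122337.1, AC154124.1, Mir21, Mir10b and Mir22, in that order. After TMM scaling the first 3 kept 234%, 115% and 119%, and Mir21, Mir10b and Mir22 were below the WT level. Mir10b, a miRNA of the Hox clusters, kept 117% in RPM and 44.9% after TMM scaling. Its WT mean was uneven, 1349 ± 1458 RPM (SD, n = 6), from 420 to 4275 RPM. The highest value was that of WT 2A, from 69 reads, so its place among the 32 and its level kept rest largely on that library. By level, Mir21 was 11th and Mir22 15th of the 308 miRNAs with a WT read, and they were 5th and 7th in Dicer/Dnmt1 KO. As a share of all miRNA reads, Mir21 had 1.57% ± 0.60 (SD, n = 6) in WT, 2.73% ± 0.34 (n = 2) in Dnmt1 KO and 8.29% ± 3.56 (n = 4) in Dicer/Dnmt1 KO. Mir22 had 0.828% ± 0.28, 2.81% ± 0.61 and 4.33% ± 2.25. The highest share of Mir21 was 11.9% in Dicer/Dnmt1 KO 1B, with a 95% Wilson interval from 9.48% to 14.7% for 69 of 582 miRNA reads.

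The reads of Mir21 per read of Mir22 compare the 2 members inside a library and need no scaling. The level of the ratio also depends on how well each sequence was ligated and amplified, which was not measured, so only its differences between libraries are read. The ratio was 2.25, 2.09, 1.27, 1.32, 2.49 and 1.87 in WT 1A to 3B. It was 1.05 and 0.915 in Dnmt1 KO A and B, and 1.91, 2.03, 1.63 and 2.48 in Dicer/Dnmt1 KO 1A to 2B. Both Dnmt1 KO values lay below all others, and the Dicer/Dnmt1 KO values lay within the WT range.

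The group means of this ratio were 1.88 ± 0.50 (SD, n = 6) in WT, 0.982 ± 0.095 (n = 2) in Dnmt1 KO and 2.01 ± 0.35 (n = 4) in Dicer/Dnmt1 KO. The log2 ratio of Dnmt1 KO minus WT was -0.89 (two-sided exact permutation p = 0.0714, the smallest that 2 against 6 libraries allow), so the threshold of 0.05 could not be reached. The WT values nearest to Dnmt1 KO were those of 2A and 2B, the libraries titled E14 2, and without them the difference was -1.14.

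**Figure D3:**
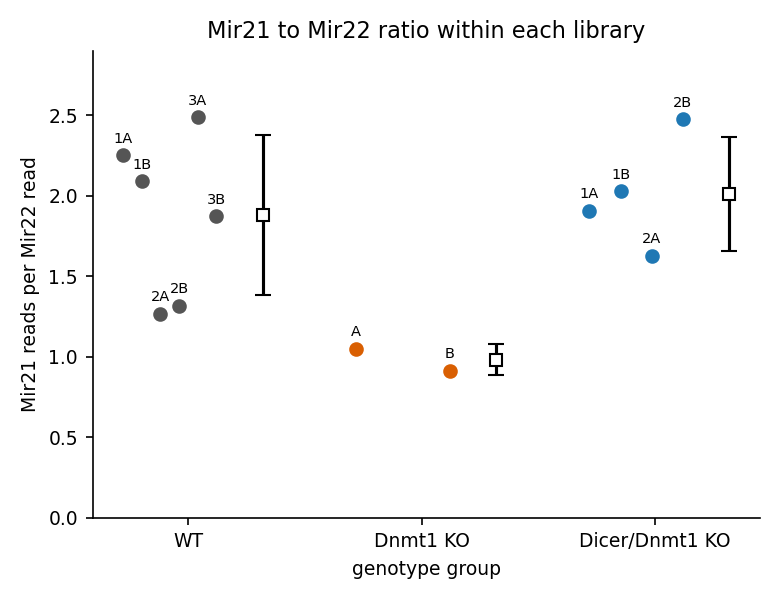
Mir21 reads per Mir22 read within each of the 12 libraries (linear axis from 0), by genotype. Points are libraries and open squares with bars are the group mean ± SD; Dnmt1 KO A and B, at 1.05 and 0.915, lie below the 6 WT and 4 Dicer/Dnmt1 KO libraries.

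Leaving aside the host rows that repeat its reads, the feature whose log2 level followed Mir21 most closely over the 12 libraries was Mir22, and the reverse was also so (Pearson r = 0.983). The 12 libraries fall into 3 genotypes and share their depth and scaling, so this is a description. The next rows were Clcn5 for Mir21 (r = 0.939) and Lpp for Mir22 (r = 0.933), and these too are host genes of miRNAs. Of the 594 reads of Clcn5, 98.2% came from 5 miRNAs inside it, mostly Mir532 with 545 reads, and Mir28 gave 82.2% of the 371 reads of Lpp. Vmp1 followed Mir21, and Tlcd2 and 2210403K04Rik followed Mir22, at r = 1.00, because they hold the same reads.

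Marker lists of miRNAs from other cell types were set beside the members. Of 39 fibroblast and mesenchymal miRNAs in the table, 15 passed the filter on low values, and the list does not hold Mir21 or Mir22. Its summed level was 6331 RPM in WT (4426 to 10840), 18470 and 22250 RPM in Dnmt1 KO A and B, and 18090, 13780, 30350 and 8553 RPM in Dicer/Dnmt1 KO 1A to 2B. In RPM the list thus kept 279%. Its highest and lowest libraries of that group were Dicer/Dnmt1 KO 2A and 2B, as for both members in RPM. The list was summed in RPM only, while TMM scaling lowered the level kept by both members and altered the order for Mir21. The level kept by the list and its order after TMM scaling are therefore not given. Dicer/Dnmt1 KO 2B was also the lowest of its group for Mir93 (1.66% of the WT mean) and for the summed ESC miRNAs (1.24%). Of the 39, 8 were at 0 reads in WT and 9 in Dicer/Dnmt1 KO. Members of the list differed. Both Mir199a genes were at 0 reads in WT and Dnmt1 KO and had 1 read in all in Dicer/Dnmt1 KO. Mir214 had 1.16, 30.6 and 45.7 RPM in WT, Dnmt1 KO and Dicer/Dnmt1 KO, and Mir145 had 4.75, 38.0 and 20.7 RPM. Neither of these 2 had more than 6 reads in any library. With more reads, Mir29a had 43.9, 201 and 304 RPM and Mir140 473, 1306 and 120 RPM in the same groups. The part of such cells in the levels of Mir21 and Mir22 was not tested.

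The lists were chosen with earlier results of these data known, so the adjusted p-values and calls of list members are descriptive. Most of the fibroblast list's sum came from few miRNAs. Mir143, enriched in smooth muscle and fibroblasts, had 585 RPM in WT, 6140 in Dnmt1 KO and 8481 in Dicer/Dnmt1 KO (log2 difference to WT 3.63 ± 0.70 SE, limma adjusted p = 0.00506, and 2.95 ± 0.55, limma adjusted p = 9e-04). Mir10a, of a Hox cluster, had 646, 1553 and 3769 RPM and was not called in either contrast (limma adjusted p = 0.328 and 0.0819). Mir27b and Mir10b, its most abundant members in WT, had 2138 and 1349 RPM there, and Mir27b kept 55.4%. The WT level of Mir10b ran from 420 to 4275 RPM by library. Against WT, 2 of the 15 tested were called higher in Dnmt1 KO (Mir143 and Mirlet7i) and 0 lower, beside 21.1% and 0.752% of all tested miRNAs. In Dicer/Dnmt1 KO 4 were called higher (Mir143, Mirlet7i, Mir221 and Mirlet7d) and 5 lower (Mir140, Mir23a, Mir27a, Mir34c and Mir27b). Of all tested miRNAs 12% were called higher and 60.9% lower there. The median log2 difference of the 15 was -0.27.

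The ESC, haematopoietic and endothelial miRNA lists did not keep their level. The 21 ESC miRNAs summed to 173400 RPM in Dnmt1 KO and 5124 RPM in Dicer/Dnmt1 KO, or 2.99% of WT, and all 18 tested were called lower there, as were 60.9% of tested miRNAs. Their most abundant members in WT were Mir92-1, at 92270 RPM, and Mir295, at 26000 RPM, which kept 2.09% and 5.72%. The haematopoietic list (8 miRNAs, 3 tested, led by Mir142 and Mir150) summed to 846, 780 and 75.7 RPM in WT, Dnmt1 KO and Dicer/Dnmt1 KO and kept 8.94%. Mir126, the endothelial marker, had 155 and 677 RPM in WT and Dnmt1 KO. It had 0 reads in the 4 Dicer/Dnmt1 KO libraries, which allows a level of up to 19.9 RPM in 2B, with most reads, and of 344 RPM in 1B.

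The remaining lists were small. The liver and epithelial list (7 miRNAs, 2 tested) kept 11.6% of 968 RPM and the neural list (8, none tested) 31.2% of 132 RPM, and muscle miRNAs (8) were at 0 in WT and in Dicer/Dnmt1 KO. Fragments of 14 fibroblast mRNAs, 1 of them tested (Fn1), summed to 53.1, 71.4 and 245 RPM in WT, Dnmt1 KO and Dicer/Dnmt1 KO. That sum was highest in Dicer/Dnmt1 KO 2B, at 511 RPM, the library in which Mir21 and Mir22 were lowest of that group in RPM. This library was the deepest of its group, and Fn1 and Sparc had 28 and 22 reads in it. In 1A and 1B no mRNA of the list had more than 2 reads. The cell source of Mir21 and Mir22 was not tested. Fragments of 8 pluripotency mRNAs summed to 85.9, 53.8 and 182 RPM, and those of 10 miRNA biogenesis genes to 86.8, 67.6 and 134 RPM, with none of either list tested.

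**Figure D4:**
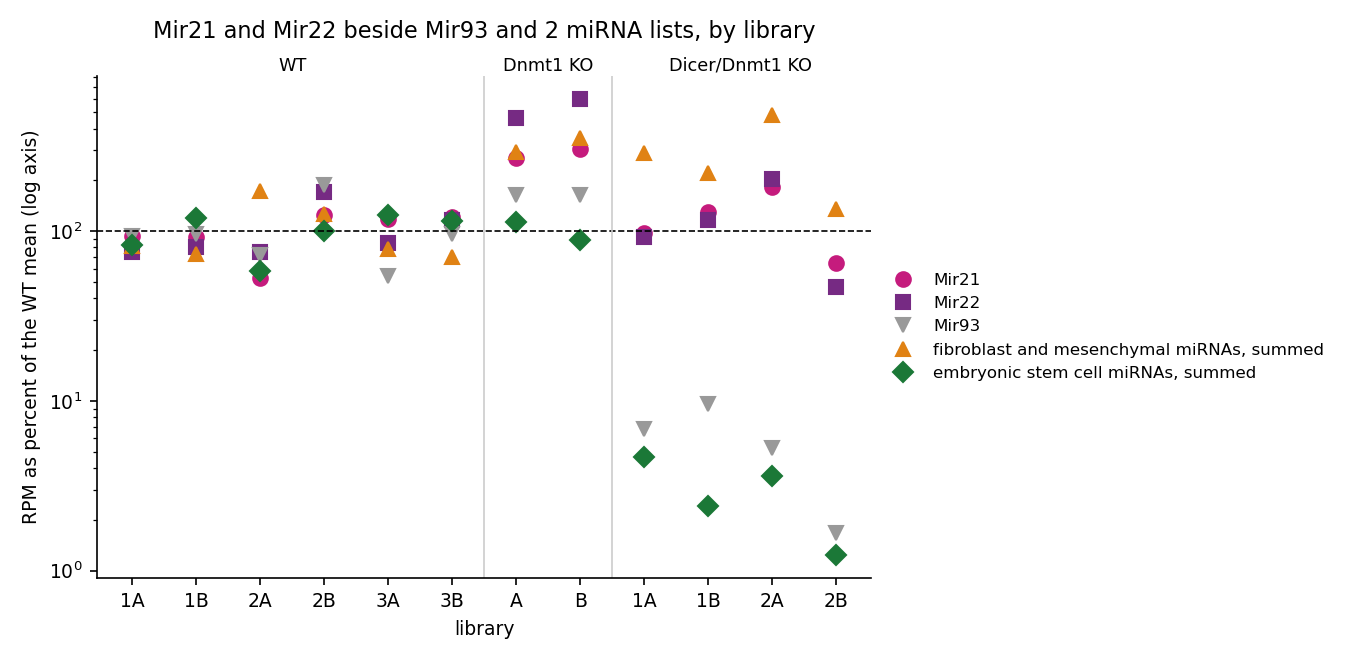
RPM as a percent of the WT mean (log axis, dashed line at 100%) in each of the 12 libraries for Mir21, Mir22, Mir93 and the summed fibroblast and ESC miRNA lists. In Dicer/Dnmt1 KO Mir21, Mir22 and the fibroblast list lie between 47.0% and 479% while Mir93 and the ESC list lie under 10%.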

How the data were processed

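RNA was ligated with a small RNA library kit and sequenced on Illumina instruments. As the labels and methods state, the authors trimmed reads (Trim Galore 0.3.5), kept 20 to 24 nt, mapped them to NCBIM37 with Bowtie2 2.2.6 and counted overlaps per annotated feature. The deposited table holds log2 RPM, with a count of 0 written as 0.9 read. All values came out as whole reads within 0.1 read, and the 32101 features were matched to gencode vM1 by position. The table has 89 further value columns, matching none of the samples, which were left out. Whether counting used strand, and how multiple hits were treated, is not given in the sources used here.

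A count model was not used on log2 values. Features with at least 10 reads at the median depth (111.3 RPM) in 2 libraries and 15 reads in all were tested (683). limma 3.58.1 (R 4.3.3) with a trend was run on log2(RPM + 10) after TMM scaling (trims 30% and 5%), in 1 fit over the 3 groups, with Benjamini-Hochberg adjustment at 0.05. The fit was tested on simulated data. The ratio test is exact (scipy 1.17.1). Intervals are 95% Wilson intervals, and a count of 0 allows up to 3 reads. A and B libraries of 1 number differed far beyond sampling noise and were kept apart, which does not make them independent. The estimated correlation of A and B was 0.30.

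Named features were the members, overlapping genes, miRNAs of 0.5 to 2 times a member's WT mean (the nearest, and those that kept most and least), the best correlated features, Mir93 and list members of highest level. Outside this rule, fibroblast list members called in the fit were named, and so were Mir199a, Mir214, Mir145 and Mir29a of that list. The members and lists were chosen with earlier results of these data known.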

Additional observations from a re-analysis of the deposited data

Results flagged for a closer look

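The share of Mir21 among the miRNA reads of the 6 WT libraries was 0.464% in WT 2A and 1.47% to 2.05% in the other 5. The gap of WT 2A to the nearest library was 0.6335 of the range of the group, a gap that chance exceeds in about 1 of 20 such groups, and 10 groups were looked at. WT 2A had 52 Mir21 reads among 11214 miRNA reads (95% Wilson interval 0.354% to 0.608%). It is the shallowest WT library and the one with the largest share of miRNA reads, and without it and WT 2B the level kept without Dicer was 112% for Mir21 and 128% for Mir22.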

How the results depend on the processing

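Between Dnmt1 KO and WT, the difference of Mir21 and Mir22 kept its direction in all 23 other settings, but lost its call in 7 for Mir21 and 4 for Mir22. The log2 difference of Mir21 was 1.57 with library reads alone (limma adjusted p = 0.166), 1.63 with no filter (0.513), 1.98 with A and B summed (0.334) and 1.73 with their correlation estimated (0.0769). That of Mir22 was 2.53 with no filter (limma adjusted p = 0.30) and 2.89 with A and B summed (0.234). Leaving out 1 library each gave 1.59 to 1.98 for Mir21 and 2.44 to 2.84 for Mir22.

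Between Dicer/Dnmt1 KO and WT, library reads alone turned the log2 difference to 0.19 for Mir21 and 0.070 for Mir22. TMM factors exceeded 1 in all 4 Dicer/Dnmt1 KO libraries, though only just in 2B, and were lowest in WT 2A and 2B. Without WT 2A and 2B the log2 difference after TMM scaling was -0.29 for Mir21 and -0.17 for Mir22. Against Dnmt1 KO the log2 difference moved to -1.37 (Mir21) and -2.39 (Mir22) with library reads and to -2.87 (Mir21) with factors from snoRNAs and snRNAs. The level kept by Mir21 was 64.6% after TMM scaling, 527% as a share of miRNA reads and 41.3% of Dnmt1 KO. That of Mir22 was 523% and 21.5% on the last pair of scales.

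Same-numbered WT and Dicer/Dnmt1 KO libraries did not deviate together (median r = -0.20, 8 pairs, against 0.15 for the other 16 pairs). Deviations were taken from group means and the pairs reuse libraries, so this cannot show whether same-numbered libraries shared a batch. With a replicate block the log2 difference was -0.51 for Mir21 and -0.75 for Mir22, and the miRNAs called higher fell from 16 to 9 and those called lower from 81 to 72. Over all settings, miRNAs called higher in Dnmt1 KO numbered 9 to 54 (28 as reported), and those called lower in Dicer/Dnmt1 KO 72 to 85. Depth limits Dicer/Dnmt1 KO 1B, with 34 Mir22 reads.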
